A study of Mus musculus with 4 samples.

Results

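Lymphoid-primed multipotent progenitors (LMPPs) in which RBPJ had been switched on for 6 days were set against LMPPs that had always carried RBPJ, to ask which transcripts stood at the control level after RBPJ was given back, which had passed it and which still differed. The comparison held 4776 cells, 2094 in the RBPJ 6 days induced library and 2682 in the control library, out of 8883 cells of 4 libraries in the series. Cells were those of the authors' cell sets, 2129 at 6 days and 2693 in control, without the 35 (1.64%) and 11 (0.408%) cells that held 10 or more unique molecular identifiers (UMIs, each standing for 1 captured transcript) summed over 6 genes of mature blood cells, S100a8, S100a9, Hba-a1, Hbb-bs, Elane and Pf4. Few cells lay near that limit, 5 and 5 with 5 to 9 such UMIs and 0 and 2 with 10 to 14. Of 27998 listed genes, 7226 reached 10 UMIs per 1000000 UMIs of the library (CPM) in either summed library and were compared. At the edge of that minimum stood Vps13b, just inside at 10.0 and 8.41 CPM, and Zxdc, just outside at 9.71 and 9.99 CPM, in 6-day and control cells.

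LMPPs can still form lymphoid and myeloid cells. They were taken from C57BL/6 bone marrow with a cell sorter and measured with 10x Genomics droplets. The 4 libraries came, 1 each, from mice that lacked RBPJ (RBPJ uninduced), from such mice 3 and 6 days after RBPJ was switched on by doxycycline, first by injection of a 2 mg/ml solution and later through drinking water holding 1 mg/ml, and from control mice that had kept RBPJ throughout. The labels give the doxycycline text for every library, so whether control and uninduced mice received it is not clear. How many mice each library pooled, their sex and age, and the promoters that drive the deletion and the inducible RBPJ are not stated in the labels. With 1 library per group no difference below has a replicate check and no p-value was computed. Library and group cannot be told apart, and bracketed 95% intervals cover counting error only.

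Notch receptors are cleaved when they bind a ligand, and the freed intracellular part travels to the nucleus, where it binds the DNA-binding protein RBPJ and turns RBPJ-bound genes on. Without that signal RBPJ recruits corepressors and can hold the same genes down, so losing RBPJ can remove both activation and repression. In early blood progenitors the pathway is best known for directing cells to the T lineage, and Hes1, a repressor of the hairy and enhancer of split family, is its classical direct target.

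The 6-day cells held 17090136 UMIs and the control cells 23418298, with medians of 7360.5 and 7923.5 UMIs and 2134 and 2367 genes per cell. The uninduced and 3-day libraries, used for the path back to control, held 20653811 and 10499558 UMIs in 2735 and 1275 kept cells. The 6-day library shared 12 cell barcodes with control. LMPP genes were present in both libraries. Flt3, a cytokine receptor gene that marks LMPPs, stood at 204 CPM at 6 days and 223 CPM in control, Cd34 at 416 and 486 CPM, and Dntt, which encodes the lymphoid enzyme terminal transferase, at 856 and 772 CPM. Xist, the noncoding RNA of the inactive X chromosome, had 1761 CPM (1741 to 1781) in 6-day cells and 1111 CPM (1098 to 1125) in control cells, with a UMI in 1188 of 2094 and 1096 of 2682 cells. The Y-linked genes Eif2s3y (23.5 and 36.6 CPM) and Ddx3y (20.8 and 29.3 CPM) stood the other way. The part of this difference in the results below was not tested.

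The libraries were close to each other over most genes. Against control, 99.5% of the 7226 genes lay within 1.5-fold at 6 days, on the scale of CPM + 1 used for all counts of genes, and 98.8% did so in uninduced cells. By size alone, with no test, 8 genes (0.111%) exceeded control by 2-fold or more at 6 days and 0 (0%) fell short of it by as much. At 1.5-fold, 26 genes (0.36%) were higher and 10 (0.138%) lower, 0.498% in all. S100a8 and S100a9 were among the 8 and the 26, and both were among the genes used to leave cells out. The 3-day library had 0.526% higher and 1.37% lower, 1.9% in all. The median log2 ratio of all genes was -0.10, and the split of the 1.5-fold genes moved with scaling. Higher genes made up 72.2% of them as counted here, 91.9% after TMM scaling, 94.4% after DESeq2 scaling and 88.9% when the total left out mitochondrial, ribosomal protein and Rbpj UMIs, but 38.6% after every cell was thinned to 4700 UMIs, which left 1730 and 2336 cells.

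Each gene was placed by where it stood in uninduced cells and where it stood at 6 days. A gene had departed when uninduced cells were at least 1.5-fold from control, which held for 90 genes (1.25%), 36 of them higher (0.498%) and 54 lower (0.747%). It was called restored when 6-day cells were back within 1.5-fold with at least 50% of the log2 gap closed, overshooting when they stood at least 1.5-fold on the other side of control, and staying different when they stood at least 1.5-fold on the same side. Of the 90, 57 were restored, 1 overshot, 19 stayed different and 13 were within 1.5-fold with under 50% of the gap closed. A further 16 genes were 1.5-fold from control at 6 days but not in uninduced cells. Both ratios share the control library, so a chance high or low value there moves both, and the classes are a description of these libraries.

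**Figure D1:**
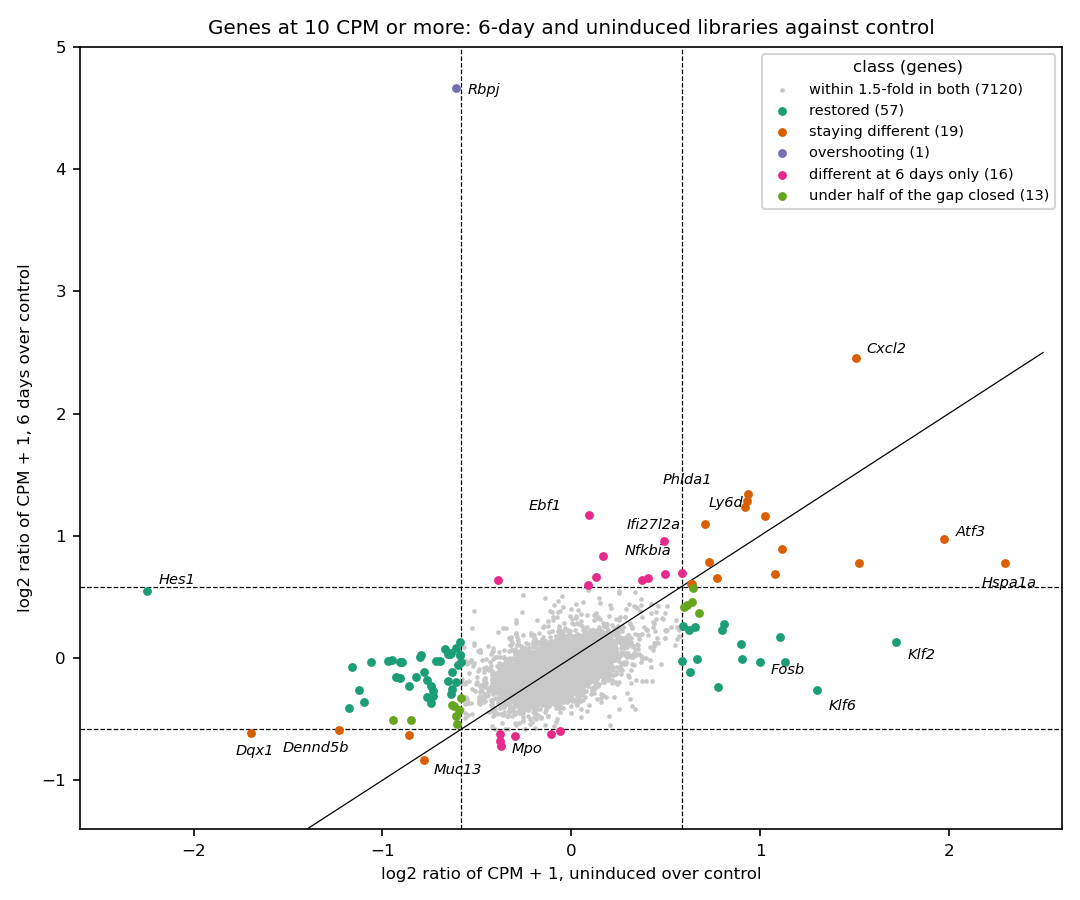
Each point is a gene at 10 CPM or more, with the log2 ratio of CPM + 1 of uninduced over control cells on the x axis and of 6-day over control cells on the y axis, dashed lines at 1.5-fold and the solid line where both ratios are equal. Of the genes that had departed in uninduced cells, 57 lie between the horizontal lines as restored, Rbpj stands at 4.66 on the y axis, Hes1 lies just under the upper line at 0.55, and Cxcl2 lies farthest above control among the genes that stayed different, at 2.46.

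Rbpj, whose switch is the experiment, is a protein-coding gene (ENSMUSG00000039191) on the plus strand of chromosome 5 from 53466152 to 53657362 in build GRCm38. It stood at 11.3 CPM (9.88 to 12.8) in uninduced cells, 472 CPM (459 to 485) at 3 days, 474 CPM (464 to 485) at 6 days and 17.8 CPM (16.1 to 19.6) in control. The 6-day level was 26.7-fold (24.2 to 29.5) above control and about the same as at 3 days. The transcripts of the inducible and the native gene were not told apart in the counts, and 24.5% of the sequence at the Rbpj transcript end occurred in another gene. Rbpj was the overshooting gene, a class it enters only because its uninduced level was just past 1.5-fold below control, and under the alternatives with cells thinned, cells weighted alike, 5 CPM added in place of 1, TMM or DESeq2 it no longer counted as departed.

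The Rbpj transcripts were unevenly spread over 6-day cells. After thinning to 4700 UMIs per cell, 43.4% of 6-day cells (41.1 to 45.8) and 7.79% of control cells (6.74 to 8.95) held a Rbpj UMI, and unthinned shares were 45.3% and 13.9%. In uninduced cells, which by label lack RBPJ, the thinned share was 4.83% (3.95 to 5.85). RNA outside cells, read from barcodes of 10 to 100 UMIs, held Rbpj at 285 CPM in the 6-day and 17.4 CPM in the control library, and its part in the shares was not tested. Of the thinned 6-day cells 751 held a Rbpj UMI and 979 did not, and 227 held 5 or more.

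Hes1 stood above control after 6 days, having been the lowest in uninduced cells. It (ENSMUSG00000022528; chromosome 16, 30064384 to 30067796, plus strand, protein coding) stood at 18.2 CPM (16.4 to 20.1) in uninduced cells, 44.1 CPM (40.2 to 48.3) at 3 days, 132 CPM (126 to 137) at 6 days and 90.0 CPM (86.2 to 93.9) in control. The 3-day library lay between uninduced and control, and the 6-day library above control, with intervals that do not overlap. The 6-day fold over control was 1.46 (1.38 to 1.55), so the gene counts as restored, just under the limit for overshooting. Its log2 ratio was 0.55, between 0.39 with cells weighted alike and 0.64 under DESeq2 scaling, and under TMM, DESeq2 and the total without mitochondrial, ribosomal protein and Rbpj UMIs it passed the limit and became an overshooting gene.

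A Hes1 UMI was found in 24.6% of thinned 6-day cells (22.6 to 26.7) and 18.4% of thinned control cells (16.8 to 19.996), with unthinned shares of 31.04% and 24.6%. Within the 6-day library Hes1 was not higher where Rbpj was seen. It stood at 114 CPM (104 to 126) in thinned cells with a Rbpj UMI, 159 CPM (148 to 171) in those without, and 97.5 CPM (91.8 to 104) in thinned control cells. In the 227 cells with 5 or more Rbpj UMIs it was at 68.4 CPM (53.6 to 86.0). The cells with and without a Rbpj UMI had median depths of 10013 and 7383 UMIs before thinning, and the part of cell size or cell kind in this order was not tested.

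**Figure D2:**
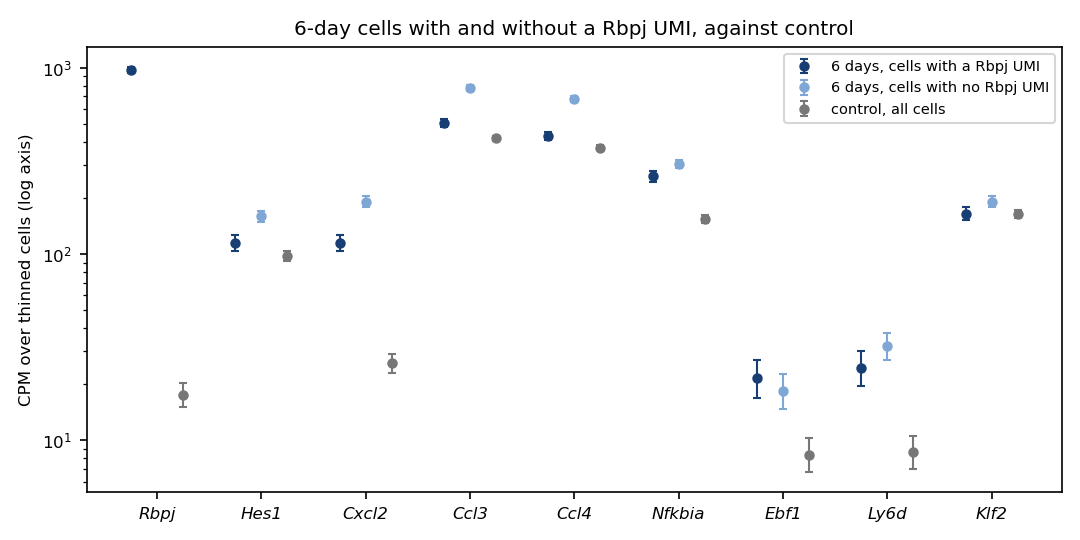
Levels in CPM on a log axis over cells thinned to 4700 UMIs, with exact Poisson 95% intervals, for 6-day cells with a Rbpj UMI, 6-day cells without one, and control cells. Hes1 and Cxcl2 were lower in 6-day cells with a Rbpj UMI (114 and 115 CPM) than in those without (159 and 191 CPM), and both groups of 6-day cells lay above control for Cxcl2 (25.9 CPM). No Rbpj point is drawn for the cells defined by having no Rbpj UMI.

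The other genes of the pathway were close to control at 6 days. Of 21 Notch target genes found in the files 9 were at 10 CPM or more, 0 were 1.5-fold higher and 0 lower, and their median log2 ratio was -0.03 against -0.10 for all genes. Notch1, a receptor gene and itself a target in T cells, stood at 55.4 CPM at 6 days and 56.4 CPM in control. Lfng, a glycosyltransferase gene whose product tunes Notch receptors, stood at 14.6 CPM in uninduced, 12.2 at 3 days, 20.3 at 6 days and 21.4 CPM in control. The other 12 targets were below the 10 CPM minimum, where 3 UMIs correspond to 0.176 CPM at 6 days and 0.128 CPM in control. Gata3, a T lineage transcription factor gene, stood at 3.34 and 4.74 CPM, and the T cell surface gene Thy1 at 2.52 and 2.22 CPM, in 6-day and control cells. Hes5 stood at 5.27 and 4.65 CPM, Nrarp at 4.45 and 3.89 CPM, Hey1 at 0.351 and 0.299 CPM, and Notch3 at 0.0585 and 0.0427 CPM, in 6-day and control cells. Dtx1 had 2 UMIs at 6 days and 0 in control, and Heyl and Il2ra had none in either. Ptcra, which encodes the pre-T cell receptor alpha chain, was at 6.14 CPM (5.03 to 7.44) and 3.67 CPM (2.94 to 4.54), with 87.6% and 88.4% of its UMIs in 10 cells.

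Cd28, the T cell costimulatory receptor gene (ENSMUSG00000026012), was a restored target from above. Cd28 stood at 20.4 CPM in uninduced cells, 11.4 at 3 days, 10.2 at 6 days and 8.92 CPM in control. The 3-day library was already within 1.5-fold of control. Its 6-day level was just over the 10 CPM minimum. With all of the authors' cells, cells weighted alike or a 30 CPM minimum Cd28 no longer counted as restored. Of 20 Notch pathway components at the minimum Rbpj was the only one past 1.5-fold. The list median was -0.09. Among them the receptor gene Notch2 had the next highest log2 ratio, 0.35, at 35.05 CPM at 6 days and 27.3 CPM in control, and the gamma-secretase gene Psen2 the lowest, -0.28.

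The genes restored from above numbered 16, and 7 of them were within 1.5-fold of control at 3 days. The class included AP-1 and Kruppel-like factor genes. Several AP-1 genes are immediate early genes, which cells switch on within minutes of stress, handling or growth signals. Klf2 and Klf6 encode zinc finger factors. Klf2 stood at 571 CPM (560 to 581) in uninduced cells, 552 CPM (538 to 566) at 3 days, 189 CPM (182 to 195) at 6 days and 172 CPM (167 to 178) in control. Uninduced and 3-day cells were high, and 6-day cells were 1.09-fold (1.04 to 1.15) above control. Klf6 stood at 330, 373, 111 and 133 CPM in the same order. At 6 days it was slightly below control, at 0.831-fold (0.785 to 0.881).

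Among the AP-1 subunit genes Fosb, Jun, Fos and Jund were in the class. Fosb stood at 259 CPM in uninduced cells, 279 at 3 days, 126 at 6 days and 129 CPM in control. Jun was at 792, 1038, 498 and 499 CPM, and its 6-day fold over control was 0.996 (0.969 to 1.02). Fos stood at 1726, 1344, 856 and 1007 CPM, so 6-day cells were 0.850-fold (0.833 to 0.868). Junb, at 628, 502, 518 and 492 CPM, and Fosl2, at 7.26, 7.71, 11.001 and 7.69 CPM, were less than 1.5-fold from control in uninduced cells and so not in it. Jund, Klf4, the MAP kinase phosphatase gene Dusp1, the HSP40 cochaperone gene Dnajb1, the small GTPase gene Rhob, the kinase gene Plk2, the ubiquitin ligase gene Siah2, the phospholipase gene Pla2g12a and the noncoding Gm26532 were also in the class, between 0.923-fold for Rhob and 1.23-fold for Plk2 at 6 days.

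Read by list, AP-1 genes were nearer control at 6 days than in uninduced cells. Of 14 AP-1 and early growth response genes at the minimum, 1 was 1.5-fold higher at 6 days (Atf3) and 0 lower, with a median log2 ratio of 0.15, where 6 were higher in uninduced cells with a median of 0.57 and 6 at 3 days with a median of 0.40. Of 8 Nr4a and Kruppel-like factor genes 0 were 1.5-fold from control at 6 days, with a median of 0.09, and 4 had been higher in uninduced cells. Nr4a1, an orphan nuclear receptor gene, was at 209 CPM in uninduced, 101 at 3 days, 184 at 6 days and 137 CPM in control, which left it among the genes with under 50% of the gap closed. Of 12 heat shock genes 1 was 1.5-fold higher at 6 days, the HSP70 gene Hspa1a, at 57.0 CPM in uninduced, 451 at 3 days, 19.3 at 6 days and 10.8 CPM in control. Its 3-day level stood far above the rest, and the list median at 6 days was -0.05. RNA outside cells held Hspa1a at 68.8 CPM at 6 days and 20.3 CPM in control, and its part was not tested.

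**Figure D3:**
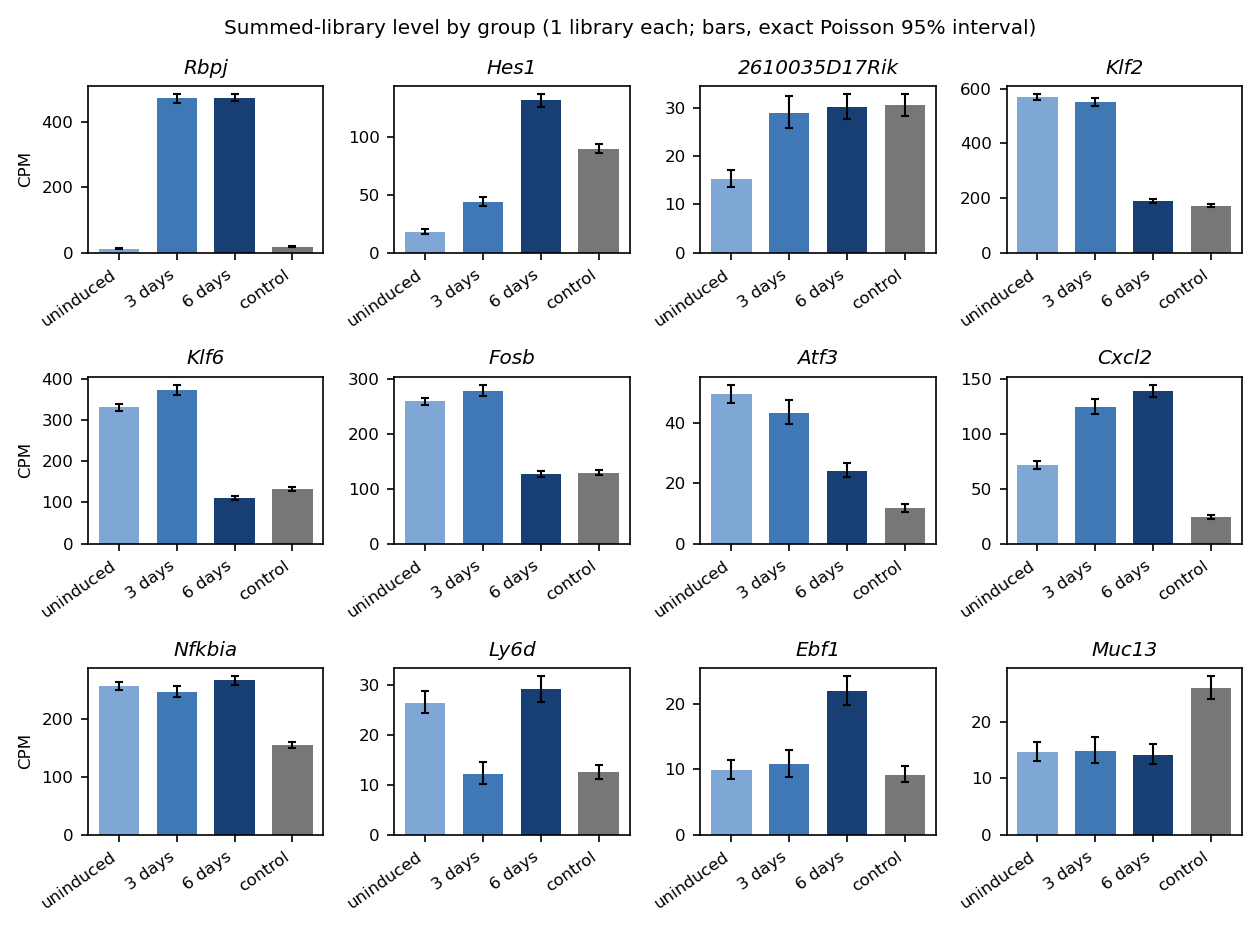
Bars give the level in CPM of 12 genes in the uninduced, 3-day, 6-day and control libraries, with exact Poisson 95% intervals as error bars and 1 library per bar. Klf2, Klf6 and Fosb are high in uninduced and 3-day cells and near control at 6 days, Cxcl2 is highest at 6 days (139 CPM against 24.4 CPM in control), Ly6d and Ebf1 are at 29.1 and 21.9 CPM at 6 days against 12.5 and 9.18 CPM in control, and Muc13 is lower than control in all 3 other libraries.

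The genes restored from below numbered 41, and their makeup sets a limit on reading them. In 21 of the 41 (51.2%) at least 50% of the sequence at the transcript end occurred in another gene, as in processed pseudogenes and duplicated genes, against 178 of all 7226 genes (2.46%). For such genes the counts depend on how reads that match several genes were assigned, which was not given in the sources used here, so they are uncertain. Genes of this kind were 1.5-fold or more below control in 22 cases in uninduced, 12 at 3 days and 0 at 6 days. Examples were the importin gene Kpna2, the nucleoside diphosphate kinase gene Nme2, and copies of ribosomal protein genes such as Rpl36-ps3 and Rps27rt. Whether library preparation or read assignment had a part was not tested.

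Of the other 20, 9 were within 1.5-fold of control already at 3 days. The noncoding RNA 2610035D17Rik was at 15.3 CPM (13.7 to 17.1) in uninduced cells, 29.0 CPM (25.8 to 32.4) at 3 days, 30.1 CPM (27.6 to 32.9) at 6 days and 30.5 CPM (28.3 to 32.8) in control. Only uninduced cells were low, and both induced libraries overlapped control in their intervals. Sag, which encodes a visual arrestin, lay in steps, at 6.78 CPM in uninduced, 9.24 at 3 days, 11.995 at 6 days and 15.7 CPM in control. Snhg9, a small nucleolar RNA host gene, stood at 51.4, 53.2, 86.8 and 97.2 CPM in the same order. Vps8, which encodes an endosomal tethering subunit, stood at 8.81, 11.3, 17.03 and 17.4 CPM. The noncoding transcript of the Gt(ROSA)26Sor locus was at 15.1, 17.4, 21.2 and 25.8 CPM, and Il6st, the gp130 cytokine receptor gene, at 7.07, 9.14, 9.48 and 12.5 CPM. Il6st no longer counted as restored with all of the authors' cells, 5 CPM added in place of 1 or a 30 CPM minimum. mt-Atp8, at 148, 159, 303 and 310.4 CPM, overlaps mt-Atp6 and is uncertain, and Cks1brt is named as a retrotransposed copy and is uncertain too.

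The genes that stayed above control at 6 days numbered 15, and included a chemokine gene, which stood farthest from control, and genes of NF-kB inhibitors. S100a8 and S100a9, which were used to leave cells out, are among the 15. NF-kB is a transcription factor family held in the cytoplasm by IkB proteins until a stimulus frees it, and it then induces chemokines together with its own inhibitors. Cxcl2, which encodes a neutrophil-attracting chemokine (ENSMUSG00000058427; chromosome 5, 90903871 to 90905938, plus strand), stood at 71.2 CPM (67.6 to 75.0) in uninduced cells, 124 CPM (118 to 131) at 3 days, 139 CPM (133 to 144) at 6 days and 24.4 CPM (22.5 to 26.5) in control. All 3 libraries lay above control, and 6 days was the highest. The 6-day fold over control was 5.67 (5.17 to 6.22), against 2.92 (2.65 to 3.22) in uninduced cells.

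Nfkbia, which encodes IkB alpha, stood at 257 CPM in uninduced, 247 at 3 days, 267 at 6 days and 154 CPM in control, 1.73-fold (1.65 to 1.805) at 6 days. Tnfaip3, which encodes the ubiquitin-editing enzyme A20, stood at 20.9, 21.1, 17.7 and 9.10 CPM, 1.95-fold (1.63 to 2.33). Both were at similar levels in the uninduced, 3-day and 6-day libraries. The stretches from 250 bases before to 50 bases after the start of these genes are shown because they are the members of this class whose sequence there holds the NF-kB motif searched for, which reads GGG, then any 2 bases, then TTTCC, on either strand. They are RefSeq sequences of build GRCm38.p6 in the direction of the gene, 5′ to 3′, with the motif in capitals, at chr5:90903649-90903948 (plus strand), chr12:55492598-55492897 (minus strand) and chr10:19015361-19015660 (minus strand).
Cxcl2: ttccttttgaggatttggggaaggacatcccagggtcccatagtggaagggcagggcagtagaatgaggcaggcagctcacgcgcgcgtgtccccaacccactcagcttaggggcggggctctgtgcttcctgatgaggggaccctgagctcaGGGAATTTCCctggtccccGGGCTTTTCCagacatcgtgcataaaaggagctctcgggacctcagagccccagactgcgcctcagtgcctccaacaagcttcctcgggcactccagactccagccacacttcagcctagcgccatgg
Nfkbia: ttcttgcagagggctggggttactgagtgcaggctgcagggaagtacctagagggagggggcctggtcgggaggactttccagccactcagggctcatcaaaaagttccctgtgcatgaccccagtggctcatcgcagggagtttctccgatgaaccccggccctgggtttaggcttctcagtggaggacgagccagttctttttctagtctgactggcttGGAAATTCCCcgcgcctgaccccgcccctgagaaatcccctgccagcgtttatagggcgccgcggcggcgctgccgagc
Tnfaip3: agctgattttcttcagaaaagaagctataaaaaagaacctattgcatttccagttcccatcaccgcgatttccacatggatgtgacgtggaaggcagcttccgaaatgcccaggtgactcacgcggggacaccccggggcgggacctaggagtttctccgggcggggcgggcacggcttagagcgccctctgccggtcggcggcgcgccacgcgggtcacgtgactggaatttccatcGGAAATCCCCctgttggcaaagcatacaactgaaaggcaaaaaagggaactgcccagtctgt
The Cxcl2 stretch held 2 matches, beginning 97 and 78 bases before the start, Nfkbia 1 at 29 bases and Tnfaip3 1 at 12 bases. These distances are from the start in the RefSeq table, which lies 28 bases downstream of the start of the gene in the annotation for Cxcl2, 247 bases downstream for Tnfaip3 and at the same base for Nfkbia. Of the 15 genes that stayed above control 10 had a sequence in the table and 3 of them a match. Matches were found in 0 of 12 genes with a sequence among the 16 restored from above, in 0 of 7 with a sequence among the 10 that were higher at 6 days and not in uninduced cells, and in 512 of 27025 genes (1.895%) of the whole table. Ccl9, a chemokine gene at 69.0 CPM at 6 days and 68.0 CPM in control, also held a match. The motif TGGGAA, which RBPJ is known to bind, was found on either strand in 2 of the same 10, 5 of the same 12, 3 of the same 7 and 28.3% of all genes, and in 6 of 12 with a sequence among the 20 genes restored from below whose ends are not shared. S100a9, which was used to leave cells out, was among the 2 of 10 with TGGGAA. The NF-kB motif was found in 0 of those 12 genes restored from below. These counts by class describe the sequences and were not tested. A match is a run of letters and not evidence of binding.

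Other members of these lists stood above control too. Of 8 chemokine genes at the minimum, 4 were at least 1.5-fold higher at 6 days and 0 lower, where 0.36% and 0.138% of all compared genes were. The 4 were Cxcl2, Ccl3, Ccl4 and Ccl5. Ccl4 was less than 1.5-fold higher with all of the authors' cells, and Ccl5 in thinned cells. All 8 had ratios above 0, as did 22.6% of all compared genes, with Ccl9 the lowest at 0.02. Their median log2 ratio was 0.58 against -0.10 for all genes and 0.48 in uninduced cells. Ccl3 and Ccl4, which encode macrophage inflammatory proteins, stood at 633 and 532 CPM at 6 days and 391 and 349 CPM in control. Their 3-day levels were 296 and 349 CPM, at or below control, and their uninduced levels 586 and 543 CPM. Of 10 NF-kB feedback genes 3 were 1.5-fold higher at 6 days (Tnfaip3, Nfkbia and the cytokine gene Tnf), against 0.36% of all compared genes. None was 1.5-fold lower, and the median was 0.34. Tnf stood at 44.4 CPM in uninduced, 32.2 at 3 days, 50.8 at 6 days and 31.1 CPM in control. Icam1 and Nfkb1, on the same list, were at 10.6 and 62.0 CPM at 6 days and 11.4 and 72.5 CPM in control.

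As with Hes1, these transcripts were not more abundant where Rbpj was seen. In thinned 6-day cells with a Rbpj UMI Cxcl2 stood at 115 CPM (104 to 126), in those without at 191 CPM (179 to 204), and in control at 25.9 CPM (22.9 to 29.1). Ccl3 stood at 506 CPM (483 to 530), 778 CPM (753 to 804) and 417 CPM (405 to 430), and Nfkbia at 260 CPM (244 to 278), 304 CPM (288 to 320) and 154 CPM (147 to 162). A Cxcl2 UMI was found in 278 of 1730 thinned 6-day cells and 111 of 2336 control cells, and 228 and 73 of these also held a Nfkbia UMI. RNA outside cells held Cxcl2 at 238 CPM at 6 days and 41.8 CPM in control, a like ratio, and its part in the cells' level was not tested.

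Among the other genes that stayed above control, Phlda1, which encodes a pleckstrin homology-like protein, stood at 17.1 CPM in uninduced, 23.5 at 3 days, 22.9 at 6 days and 8.45 CPM in control, 2.71-fold (2.28 to 3.23) at 6 days. Atf3, a stress-induced factor gene of the AP-1 list, stood at 49.4, 43.4, 24.2 and 11.8 CPM, so at 6 days it was lower than in uninduced cells and 2.05-fold (1.755 to 2.39) above control. Lgmn, which encodes the lysosomal protease legumain, stood at 32.6, 21.7, 19.0 and 10.7 CPM. Cd69, an early activation antigen gene, stood at 526, 611, 486 and 308 CPM, 1.58-fold (1.53 to 1.63) at 6 days. The small Maf factor gene Maff and the acyl-CoA thioesterase gene Acot1 were at 1.69-fold and 1.54-fold.

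Ccl5, a T and NK cell chemokine gene, stood at 22.9 CPM at 6 days and 8.80 CPM in control, 2.601-fold (2.19 to 3.09), and 86.4% and 75.7% of its UMIs were in 10 cells. In thinned cells its log2 ratio was 0.02. Of 12 T and NK cell marker genes 3 were at the minimum, with Ccl5 the only one past 1.5-fold and a median log2 ratio of -0.08. Their summed level was 241 CPM at 6 days and 251 CPM in control, with Cd3e and Cd3g at 0 in both. S100a8 and S100a9, which encode calprotectin, stood at 26.6 and 15.7 CPM at 6 days and 10.7 and 6.79 CPM in control, 2.48-fold (2.12 to 2.91) and 2.31-fold (1.89 to 2.83). Both were used to leave cells out, so these levels are what remained under the limit. RNA outside cells held them at 1945 and 1055 CPM at 6 days and 663 and 353 CPM in control. The 15 mature neutrophil and monocyte genes summed to 224 CPM at 6 days and 144 CPM in control. Of them 3 were at the minimum, 2 of those 1.5-fold higher, S100a8 and S100a9 themselves, and 0 lower. The list median of 1.10 is the S100a9 ratio. Lyz2, the other gene at the minimum, stood at 158 CPM at 6 days and 116 CPM in control, a log2 ratio of 0.44. Ly6g was at 0 in both. In thinned cells S100a9 was no longer 2-fold higher.

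Ebf1 and Ly6d, read as genes of the early B lineage, stood above control at 6 days. Ebf1, the transcription factor gene that specifies B cells (ENSMUSG00000057098; chromosome 11, 44617317 to 45008091, plus strand), was at 9.88 CPM (8.57 to 11.3) in uninduced cells, 10.8 CPM (8.87 to 12.9) at 3 days, 21.9 CPM (19.7 to 24.2) at 6 days and 9.18 CPM (7.99 to 10.5) in control. Only the 6-day library was high, 2.38-fold (2.01 to 2.83) above control. Ly6d encodes a surface protein found on lymphoid progenitors that lean to the B lineage. It stood at 26.4 CPM in uninduced, 12.2 at 3 days, 29.1 at 6 days and 12.5 CPM in control. In these summed levels uninduced and 6-day cells were high and 3-day cells like control. The 6-day fold of Ly6d was 2.33 (2.01 to 2.70).

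These transcripts were concentrated in few cells. In 6-day and control cells, 33.7% and 46.5% of the Ebf1 UMIs and 39.4% and 54.5% of the Ly6d UMIs lay in 10 cells. In all other cells the levels were 14.5 and 4.91 CPM for Ebf1 and 17.6 and 5.68 CPM for Ly6d. With cells weighted alike Ly6d had a log2 ratio of 0.81, in place of 1.16. In thinned cells both genes were seen together in 26 of 1730 6-day cells (1.503%, 0.984 to 2.19) and 10 of 2336 control cells (0.428%, 0.205 to 0.786). In thinned cells with no UMI of Ebf1 or Il7r, Ly6d had 10.2 CPM (8.002 to 12.9) in the 6-day library and 2.03 CPM (1.24 to 3.13) in the control library. Such cells held it at 8.64 CPM (6.82 to 10.8) in the uninduced and 6.57 CPM (4.46 to 9.32) in the 3-day library. Ly6d in these cells was thus above control in the uninduced, 3-day and 6-day libraries. RNA outside cells held Ebf1 at 25.9 CPM at 6 days and 9.88 CPM in control and Ly6d at 28.6 and 23.2 CPM, and its part was not tested.

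Of 15 B lineage genes 3 were at the minimum, with 1 at 1.5-fold higher, 0 lower and a median of 0.37. Besides Ebf1 these were Blnk and Cd79b, at 15.7 and 37.2 CPM at 6 days and 11.9 and 32.2 CPM in control. The other 12 were below the minimum, and 14 of the 15 had a ratio above 0 at 6 days and 11 in uninduced cells, where 22.6% and 31.03% of all compared genes did. Vpreb3, a gene of the early B lineage, had 3.44 CPM in uninduced cells, 4.0002 CPM at 3 days, 7.55 CPM (6.30 to 8.97) in 6-day cells and 1.32 CPM (0.899 to 1.88) in control cells, in 18 and 5 cells. Cd79a, which encodes a signalling chain of the B cell receptor, stood at 4.45 CPM in uninduced cells, 3.90 CPM at 3 days, 6.79 CPM (5.61 to 8.14) at 6 days and 1.37 CPM (0.935 to 1.93) in control, in 28 and 10 cells. Of the 6-day UMIs 92.2% for Vpreb3 and 74.1% for Cd79a lay in 10 cells, and 100% for both in control. Pax5 had 14 UMIs at 6 days and 6 in control. Other genes of the list below the minimum lay nearer control. In 6-day and control cells Vpreb1 stood at 4.74 and 3.97 CPM and Bank1 at 5.21 and 4.10 CPM. Bach2 stood at 8.48 and 8.37 CPM and Foxo1 at 5.09 and 5.25 CPM. More B-committed cells and more RNA per cell cannot be told apart in summed levels. In thinned cells an Ebf1 UMI was found in 83 of 1730 6-day cells and 46 of 2336 control cells, and a Ly6d UMI in 63 and 41. The part of cell numbers in the summed levels was not tested.

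The wider lymphoid programme was near control. Of 18 lymphoid priming genes at the minimum 1 was 1.5-fold higher, Ly6d, and 0 lower, with a median log2 ratio of 0.05. Ccr9, at 18.5 CPM at 6 days and 12.3 CPM in control, lay just under the limit with a log2 ratio of 0.56. It passed the limit under TMM, DESeq2, the total without mitochondrial, ribosomal protein and Rbpj UMIs, and with deep cells left out. Il7r, the interleukin 7 receptor gene, stood at 18.8 CPM (16.96 to 20.8) in uninduced, 15.8 CPM (13.5 to 18.4) at 3 days, 32.7 CPM (30.1 to 35.5) at 6 days and 27.5 CPM (25.4 to 29.7) in control. Uninduced and 3-day cells were low and 6-day cells slightly above control. The recombinase gene Rag2 was at 14.04 CPM at 6 days and 11.7 CPM in control. Of 4 T lineage genes at the minimum 0 were 1.5-fold either way, with a median of 0.04. Tcf7, which encodes the T lineage factor TCF1, was at 0.117 CPM at 6 days and 1.02 CPM in control. These levels are 2 UMIs in 1 cell at 6 days and 24 UMIs in 7 cells in control.

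Further genes were 1.5-fold from control at 6 days but not in uninduced cells. With Ebf1 and Ccl3, 10 were higher. Ccl3 lay just under 1.5-fold in uninduced cells, and under TMM, DESeq2, the total without mitochondrial, ribosomal protein and Rbpj UMIs, a stricter limit on mature cell UMIs, cells weighted alike or deep cells left out it counted among the genes that stayed different. Ifi27l2a, an interferon-induced gene, was at 171 CPM in uninduced, 181 at 3 days, 237 at 6 days and 121 CPM in control, 1.95-fold (1.86 to 2.05). It was the only one of 24 interferon response genes past 1.5-fold, and the list median was -0.06. Socs2, a feedback inhibitor of cytokine receptors, stood at 8.09, 4.38, 13.4 and 7.09 CPM, 1.89-fold (1.54 to 2.32). Of the 4 SOCS and cytokine feedback genes at the minimum it was the only one past 1.5-fold, and Socs3 stood the other way, at 51.2 CPM at 6 days and 72.2 CPM in control. Mgst2, a glutathione transferase gene, stood at 17.6, 20.9, 36.7 and 23.3 CPM. Apoe, Gimap7, Tnf, Gm21967 and Xist made up the rest.

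Of the 10 genes at least 1.5-fold lower at 6 days, 4 had been lower in uninduced cells too. Muc13, which encodes a membrane mucin, stayed low, at 14.7 CPM (13.1 to 16.5) in uninduced, 14.9 CPM (12.6 to 17.4) at 3 days, 14.2 CPM (12.4 to 16.1) at 6 days and 26.0 CPM (23.9 to 28.1) in control. The uninduced, 3-day and 6-day libraries overlapped each other and lay below control, and the 6-day fold was 0.545 (0.468 to 0.634). Dennd5b, which encodes a Rab exchange factor, was part of the way back, at 39.1, 32.8, 61.5 and 93.2 CPM, 0.660-fold (0.612 to 0.710) at 6 days. Dqx1 stood at 5.04, 5.91, 11.8 and 18.6 CPM, with 78.2% and 63.2% of its 6-day and control UMIs in 10 cells, and Gm15658 at 7.80, 7.14, 9.30 and 14.9 CPM. Under TMM, DESeq2, the total without mitochondrial, ribosomal protein and Rbpj UMIs or 5 CPM added, all but Muc13 of these 4 were less than 1.5-fold lower, and Dennd5b and Dqx1 counted as restored.

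Mpo, which encodes myeloperoxidase, stood at 79.8 CPM (76.0 to 83.8) in uninduced, 87.3 CPM (81.8 to 93.2) at 3 days, 64.7 CPM (60.9 to 68.6) at 6 days and 104 CPM (99.97 to 108) in control, 0.621-fold (0.578 to 0.667) at 6 days. With all of the authors' cells its log2 ratio was -0.52, in place of -0.68, no longer past 1.5-fold, and under DESeq2 scaling it was -0.58, also short of it. The very low density lipoprotein receptor gene Vldlr was at 11.3 CPM at 6 days and 19.3 CPM in control, and P3h3, Clnk, Mboat1 and Eif2s3y were between 0.612-fold and 0.642-fold. Clnk, Mboat1 and Eif2s3y were less than 1.5-fold lower under TMM, DESeq2 and the total without mitochondrial, ribosomal protein and Rbpj UMIs, and P3h3 under TMM and DESeq2. Of 14 myeloid progenitor genes at the minimum Mpo was the only one past 1.5-fold, 13 had ratios below 0, as did 77.4% of all compared genes, and the median was -0.16 against -0.10 for all genes. The granule protease genes Prtn3 and Ctsg stood at 223 and 29.96 CPM at 6 days and 300.0 and 42.1 CPM in control.

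Of 17 stem cell genes at the minimum 0 were 1.5-fold either way, 15 had ratios below 0 against 77.4% of all compared genes, and the median log2 ratio was -0.22, the lowest of the lists of more than 3 genes, where it was -0.02 in uninduced cells. The median lay between -0.22 and -0.12 over all alternatives. Mecom, a stem cell transcription factor gene, was at 29.0 CPM at 6 days and 39.8 CPM in control, Hlf at 51.0 and 66.9 CPM and Lmo2 at 515 and 664 CPM. Cell cycle genes were slightly below all genes at 6 days, with medians of -0.19 over 36 S phase genes and -0.17 over 43 G2 and M phase genes. Of these 0 were 1.5-fold either way. In uninduced cells the medians were -0.10 for S phase and -0.22 for G2 and M phase genes, against -0.07 for all genes.

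**Figure D4:**
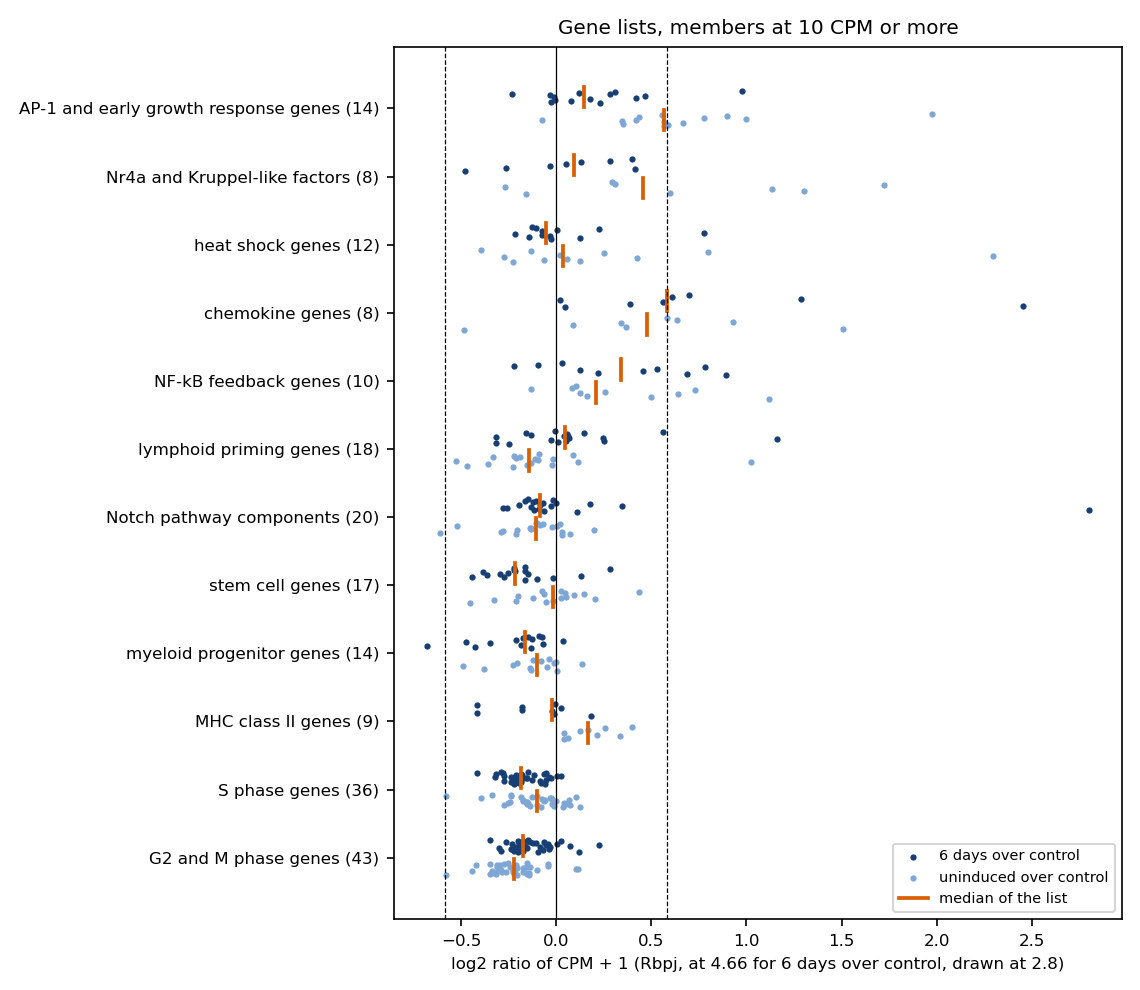
Each point is a list member at 10 CPM or more, with the log2 ratio of CPM + 1 over control on the x axis for 6-day (dark) and uninduced (light) cells, orange bars at the list medians, dashed lines at 1.5-fold, and the number of genes plotted in brackets. The AP-1 median is 0.15 at 6 days and 0.57 in uninduced cells, the chemokine median 0.58 and 0.48, and the stem cell median -0.22 and -0.02.

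The remaining lists held few or no genes past 1.5-fold, and no direction is read from medians near 0, since those of the Notch, T lineage, T and NK cell, MHC class II, BCL2, erythroid, megakaryocyte, heat shock, histone, interferon and stroma lists crossed 0 under other settings. Mitochondrially encoded genes had a median of 0.18 over 13 genes, of which 0 were past 1.5-fold, and 0.03 without those whose ends are shared with other genes. The medians were 0.12 over 7 MAPK phosphatase and Sprouty genes, 0.08 over 8 dendritic cell genes and 0.03 over 61 nuclear oxidative phosphorylation genes. They were -0.01 for the megakaryocyte gene Plek, -0.02 over 9 MHC class II genes, -0.04 over 8 BCL2 family genes, -0.05 over 3 erythroid genes, -0.05 over 21 histone genes and -0.06 over 2 stroma and endothelium genes. They were -0.10 over 7 Id and E protein genes, -0.10 over 10 p53 target genes, -0.13 over 16 LMPP surface receptor genes, -0.15 over 12 cyclin and CDK genes and -0.15 over 20 ATF4 target and tRNA synthetase genes, where Vldlr was the only gene past 1.5-fold. None of the 8 basophil and mast cell genes reached the minimum, and 5 were at 0 in both libraries. Of 3 sex-linked genes at the minimum 1 was 1.5-fold higher and 1 lower.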

How the data were processed

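The deposited matrices hold whole UMI counts per gene and cell barcode, not normalized by the authors; the deposited log2 tables, which per their values hold log2 of the count over a size factor of the cell plus 1, were used only for the barcodes of the authors' cells. The submitters' processing notes name build mm10 and Seurat, and the aligner, counting tool and annotation are not given in the sources used here. Counts were summed over kept cells, divided by each library's total (10499558 to 23418298 UMIs) and compared as log2 ratios of CPM + 1. Levels have exact Poisson, folds conditional exact and shares exact binomial 95% intervals. They cover counting error only. No doublet caller was run and doublets were kept. Each library's cells were also thinned to 4700 UMIs. A shared transcript end means that 50% or more of the 31-base words in the last 500 bases occurred in another gene.

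The members, the 35 gene lists and the named genes were chosen with earlier results of these data known. Named genes were Rbpj, the 12 highest and 12 lowest ratios, the genes of each class (12 where more), up to 3 highest and 3 lowest of each list, and core Notch targets. Ccl4, Acot1, Apoe, Gimap7, Mgst2, Gm21967 and genes below the minimum other than the core targets were named after their values were seen. Scripts were tested on simulated data. Alternatives covered cells, scaling (edgeR 4.0.16 TMM factors and DESeq2 1.42.0 size factors, R 4.3.3), minimum, pseudocount and thinning. Python 3.11.15 with numpy 2.4.6, scipy 1.17.1 and pandas 2.3.3 did the rest. A few genes are not reported here.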

Additional observations from a re-analysis of the deposited data

Results flagged for a closer look

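RNA outside cells, read from barcodes of 10 to 100 UMIs, held several of the transcripts that were higher at 6 days, and held them above the control library's level. In the 6-day library it held S100a8 at 1945 CPM (1864 to 2028), against 663 CPM (625 to 703) in the control library. S100a9 stood at 1055 CPM at 6 days and 353 CPM in control. For Rbpj the 6-day library held 285 CPM (255 to 318) and the control library 17.4 CPM. For Cxcl2 the 6-day library held 238 CPM (210 to 268) and the control library 41.8 CPM. Phlda1 stood at 18.8 CPM at 6 days and 5.81 CPM in control, Ebf1 at 25.9 and 9.88 CPM, and Ccl5 at 23.2 and 8.71 CPM. The part of this RNA in the levels of the cells was not tested.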

How the results depend on the processing

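No paired analysis was possible because there is 1 library in every group. No value at least 1.5-fold from control changed sign, while 38 of the 200 named genes and 12 of the 34 list medians, all nearer control, crossed 0. Of 1800 recomputed values of named genes 1604 moved by less than their counting interval and 196 by more, and of 340 list medians 328 and 12. The 8 genes at least 2-fold higher became 24 with all of the authors' cells, 2 at a 30 CPM minimum, 28 with no minimum and 5 with 5 CPM added, and the 0 genes 2-fold lower became 1 with cells weighted alike. The 26 genes 1.5-fold higher became 44 with all cells, 11 at 30 CPM and 106 with no minimum. The 10 genes 1.5-fold lower became 3 under TMM, 2 under DESeq2, 4 with the total that left out mitochondrial, ribosomal protein and Rbpj UMIs, 3 at 30 CPM, 88 with no minimum, 2 with 5 CPM added and 43 in thinned cells. The 57 restored genes became 37 at 30 CPM, 166 with no minimum and 36 without shared-end genes. The 1 overshooting gene became 2 with the reduced total, 2 with no minimum, and 0 with 5 CPM added, thinned cells or cells weighted alike. The 19 that stayed different became 34 with all cells, 6 at 30 CPM and 47 with no minimum. The 16 different only at 6 days became 7 at 30 CPM, 145 with no minimum, 9 with 5 CPM added, 52 in thinned cells and 26 with cells weighted alike. A stricter or absent minimum changes how many genes enter, and the cause of the other moves was not tested. Leaving out shared-end genes or deep cells was chosen after seeing the data. At 1 CPM a gene has 17.1 UMIs at 6 days and 23.4 in control, so genes near the minimum are limited by depth.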
